A study of Mus musculus with 4 samples.

Results

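The genes described here are 9 genes of catecholamine synthesis, transport and sympathetic neuron identity: Th, Ddc, Dbh, Slc6a2, Slc18a2, Phox2a, Hand1, Hand2 and Gata3. They were found by their symbol in the annotation of the array, which gave 18 probe sets (groups of array probes for 1 transcript) of 45101 and 9 of the 18193 genes that had a probe set with a single symbol. Dorsal root ganglia of mice, which hold the cell bodies of sensory neurons beside the spinal cord, were dissected fresh, and their total RNA was measured on 4 Affymetrix arrays, with 2 arrays for each of the 2 levels of ganglia, named here after their labels as sample-1 level and sample-2 level. The labels do not name the levels, and strain, genotype, age, sex and the number of animals behind an array are not stated in the labels. Within each level the labels end in le1 or le2, called array 1 and array 2 here, and the meaning of this ending is not stated. Since nothing shows that separate animals lie behind the arrays of one level, the spread that each p-value rests on could be technical.

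Catecholamines are made from tyrosine in steps: tyrosine hydroxylase (Th) makes L-DOPA, aromatic amino acid decarboxylase (Ddc) turns it into dopamine, and dopamine beta-hydroxylase (Dbh) turns dopamine into noradrenaline inside vesicles that the transporter VMAT2 (Slc18a2) fills. Released noradrenaline is taken up again by the transporter NET (Slc6a2). Sympathetic neurons carry this whole set under transcription factors such as PHOX2A, HAND2 and GATA3, whereas in dorsal root ganglia Th is best known as a marker of C-fibre low-threshold mechanoreceptors, unmyelinated sensory neurons that respond to gentle touch of hairy skin. The comparison asked which of these genes differed between ganglia of the 2 levels, and whether Th moved apart from the rest of the set.

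Th was bright on all arrays and higher at the sample-2 level, while every other gene of the set was dim. Its intensity was 656 and 748 at the sample-1 level against 954 and 1020 at the sample-2 level (702 ± 65.6 and 987 ± 47.3, mean ± SD, n = 2 per level). The other 17 probe sets measured between 0.940 and 43.3 on any array. The median intensity over all probe sets of an array was 25.9 to 27.3. Probe sets differ in how strongly they bind their target, so these intensities do not rank the transcripts, and without detection calls a dim value cannot be called absent.

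**Figure D1:**
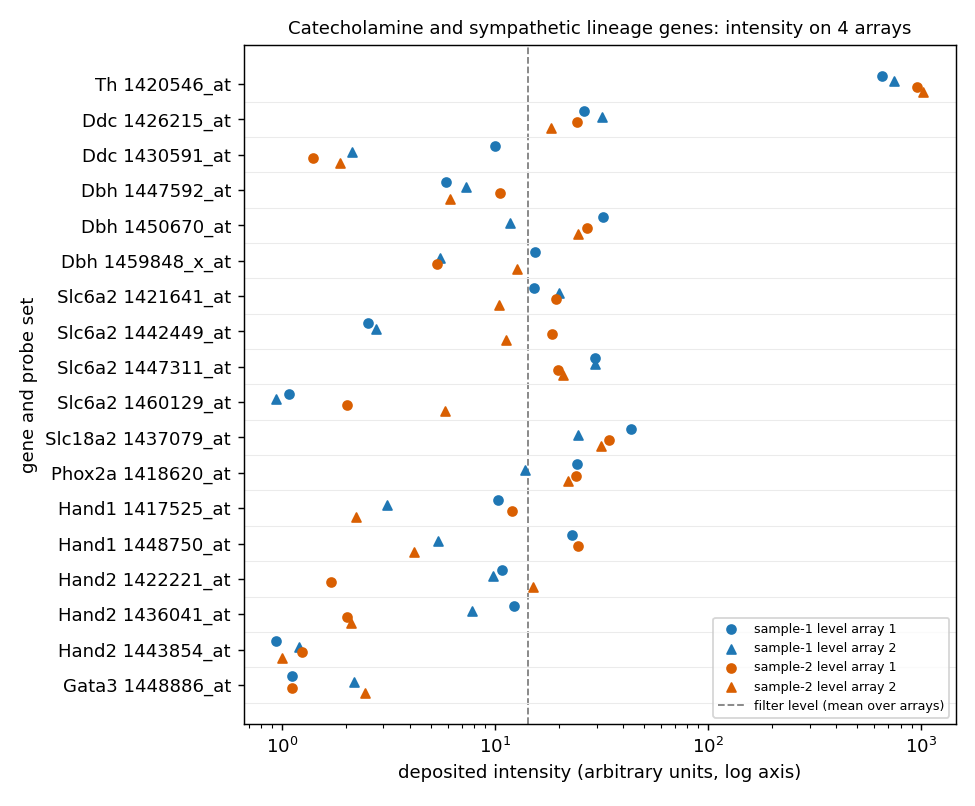
Deposited intensity (log axis) of the 18 probe sets of the 9 genes, with 1 point per array, blue for the sample-1 level, orange for the sample-2 level, circles for array 1 and triangles for array 2. The dashed line marks the filter level of 14.3, which applies to the mean over arrays taken on the log2(intensity + 16) scale. Th lies between 656 and 1020, and no other point exceeds 43.3.

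Probe sets were tested where their mean of log2(intensity + 16) over the arrays reached the 40th percentile. Turned back from that scale, this level is an intensity of 14.3. This left 7 of the 18 probe sets, from 6 of the 9 genes: Th, Ddc, Dbh, Slc18a2 and Phox2a with 1 each and Slc6a2 with 2. All probe sets of Hand1, Hand2 and Gata3 lay under that level, as did 1 of Ddc, 2 of Dbh and 2 of Slc6a2, and are given by their values only. The 1 probe set past an adjusted p of 0.05 was that of Th, and it was also the 1 with an unadjusted p under 0.05. Over all tested probe sets 0.622% passed, 0.222% higher and 0.400% lower. The arrays of the levels did not overlap for 3 of the 7 probe sets, against 41.2% of all tested, a share near the background.

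Th, the rate-limiting enzyme, rose by 0.48 ± 0.09 on the log2(intensity + 16) scale (± SE, limma adjusted p = 0.0461), with a 95% interval of 0.28 to 0.69 and a fitted ratio of 1.40. Both sample-2 arrays lay above both sample-1 arrays, as in 21.1% of all tested probe sets. The call lay close to the threshold. Leaving out an array gave an adjusted p of 0.190 (array 1) and 0.0420 (array 2) when it was from the sample-1 level and of 0.0660 (array 1) and 0.192 (array 2) when it was from the sample-2 level, with differences of 0.39 to 0.58, and centring each array on its median gave 0.0675. In bulk RNA, more Th-bearing cells and more Th transcript per cell cannot be told apart.

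The stretches of 250 bases upstream of Th and Dbh are shown because these are the bright first enzyme and the dim last enzyme of the pathway to noradrenaline. They are RefSeq promoter sequences (GRCm38.p6), 5′ to 3′ in the direction of transcription and ending at the base before the annotated start, Th from chr7:142899996-142900245 on the minus strand and Dbh from chr2:27165257-27165506 on the plus strand. Capitals mark the cyclic AMP response element TGACGTCA, which reads the same on both strands, and each ATTA on either strand (TAAT on the other), the core letters bound by many homeodomain proteins, of which PHOX2A is one.
Th: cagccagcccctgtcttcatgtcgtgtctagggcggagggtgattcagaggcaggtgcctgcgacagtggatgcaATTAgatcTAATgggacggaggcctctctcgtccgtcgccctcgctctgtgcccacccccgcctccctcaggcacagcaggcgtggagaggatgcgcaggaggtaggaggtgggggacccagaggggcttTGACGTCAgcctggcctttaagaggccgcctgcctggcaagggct
Dbh: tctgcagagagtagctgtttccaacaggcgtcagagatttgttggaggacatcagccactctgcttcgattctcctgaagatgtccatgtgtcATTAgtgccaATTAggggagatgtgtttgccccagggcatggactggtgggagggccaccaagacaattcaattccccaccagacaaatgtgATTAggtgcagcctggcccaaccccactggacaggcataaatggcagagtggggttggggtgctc
The response element of Th begins 45 bases before the start. RefSeq windows of 300 bases, 250 before and 50 after a start, were found for 7 of the 9 genes (8 windows, 2 of them for Ddc). The element was in the windows of Th and Slc18a2, where it lies across the start, and in 1.79% of all 32851 windows. ATTA occurred 3 times in the Dbh window and 2 times in that of Th, and at least 3 times in 20.0% and at least 2 times in 34.1% of all windows. Hand2 had 5 matches, 1 Ddc window 3 and the other 2, Slc18a2 1, and Phox2a and Gata3 0. A match is a match of letters, not a measured binding site.

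The enzymes after Th did not pass. Ddc (probe set 1426215_at) measured 26.1 and 31.7 at the sample-1 level against 24.4 and 18.4 at the sample-2 level. The sample-2 arrays were the lower ones without overlap, but the difference of -0.27 had a 95% interval of -0.78 to 0.25 (limma adjusted p = 0.752). Its other probe set, 1430591_at, lay under the filter level at 9.97 and 2.14 against 1.41 and 1.88.

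Dbh was brightest on probe set 1450670_at, at 32.3 and 11.7 (sample-1 level) against 27.0 and 24.6 (sample-2 level). The sample-1 arrays were thus the highest and the lowest of the 4. The difference was 0.19 with an interval of -0.43 to 0.82 (limma adjusted p = 0.868). The further Dbh probe sets were dimmer, 1447592_at at 5.88 and 7.35 against 10.5 and 6.18, and 1459848_x_at, whose suffix marks probes that can match other transcripts, at 15.5 and 5.54 against 5.33 and 12.7. Both overlapped between levels.

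Neither transporter passed. Slc18a2, the vesicular carrier, measured 43.3 and 24.5 at the sample-1 level against 34.2 and 31.6 at the sample-2 level, so that the sample-2 values lay between the sample-1 values. Its difference was -0.01 (interval -0.52 to 0.51, limma adjusted p = 0.996). This interval still includes a change as large as that of Th.

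Slc6a2, the reuptake carrier, had 4 probe sets that disagreed in direction. Probe set 1447311_at measured 29.6 and 29.3 against 19.8 and 20.9, lower on both sample-2 arrays, a difference of -0.32 (interval -0.83 to 0.18, limma adjusted p = 0.669). Probe set 1421641_at measured 15.3 and 19.9 against 19.4 and 10.5, which overlapped (difference -0.13, interval -0.74 to 0.48, limma adjusted p = 0.917). The remaining probe sets, under the filter level, lay the other way, 1442449_at at 2.54 and 2.77 against 18.4 and 11.3 and 1460129_at at 1.08 and 0.940 against 2.01 and 5.82. No direction for the gene can be drawn from these values.

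**Figure D2:**
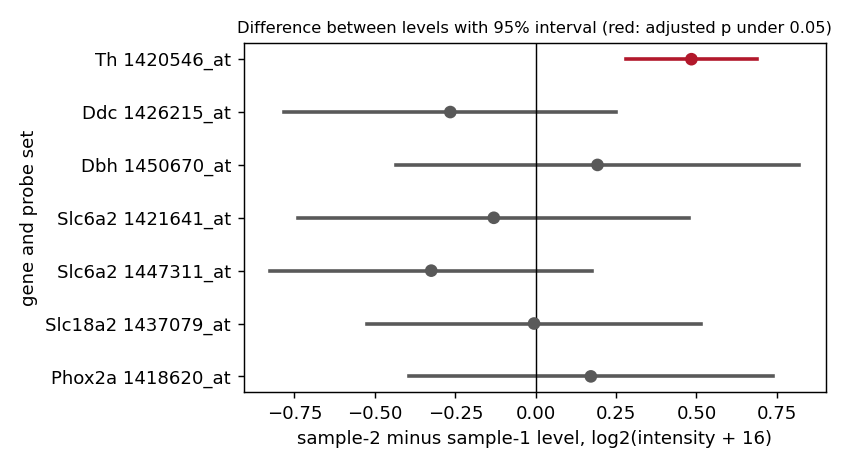
Difference between the levels (sample-2 minus sample-1, log2(intensity + 16)) of the 7 tested probe sets of the set, with lines for the 95% interval from limma and red for an adjusted p under 0.05. The interval of Th runs from 0.28 to 0.69, and the other 6 intervals include 0.

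Phox2a, the paired-like homeodomain factor that drives the noradrenergic phenotype, measured 24.3 and 13.8 at the sample-1 level against 24.1 and 22.0 at the sample-2 level. The levels overlapped, and the difference was 0.17 (interval -0.39 to 0.74, limma adjusted p = 0.869). The basic helix-loop-helix factors Hand1 and Hand2 and the zinc finger factor Gata3, which act in developing sympathetic neurons, were all under the filter level.

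Hand2 measured 10.8 and 9.84 against 1.70 and 15.1 on probe set 1422221_at, 12.3 and 7.83 against 2.03 and 2.12 on 1436041_at, and 0.944 and 1.20 against 1.25 and 1.01 on 1443854_at. The levels were apart only on the second of these, with the sample-2 arrays lower. Gata3 measured 1.12 and 2.18 against 1.12 and 2.45, with overlap. Gata3 is also a factor of T cells, and of 7 T cell markers only Il7r reached the filter level. Its probe set 1448575_at measured 20.9 and 17.4 against 15.9 and 10.3, lower on both sample-2 arrays (limma adjusted p = 0.779). The summed intensity over the 7 was 40.3 to 59.7 at the sample-1 level and 71.3 to 74.6 at the sample-2 level. This higher sum came from markers under the filter level.

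Hand1 followed the array number, taken from the ending of the labels, rather than the level. Probe set 1448750_at measured 23.1 on array 1 and 5.41 on array 2 of the sample-1 level, and 24.6 on array 1 and 4.19 on array 2 of the sample-2 level. Probe set 1417525_at gave 10.3 and 3.11, and 12.0 and 2.24. On both, the lower of the array 1 values exceeded the higher of the array 2 values, by 4.26-fold and 3.31-fold. The annotation ties both probe sets to the same transcript record. Such a gap of at least 2-fold was seen in 3.78% of the 18015 probe sets under the filter level and in 0.0777% of those tested, and the opposite gap in 5.25% and 0.178%. The pattern was looked for after the Hand1 values had been seen, and among such dim probe sets a gap of at least 2-fold is not rare. How often gaps as large as those of Hand1, or on both probe sets of a gene, occur was not counted. What the array number stands for is not stated.

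Within each array, the log2 value of Th was set against that of each other gene's brightest tested probe set. A common factor of the array cancels only in part, since the pseudocount weighs more on dim genes than on Th. The sample-2 arrays lay above the sample-1 arrays without overlap for Th against Slc6a2 (0.81 higher), Ddc (0.75) and Slc18a2 (0.49). The value for Slc6a2 rests on probe set 1447311_at, which differed by -0.32. Its probe set 1421641_at differed by -0.13, and those under the filter level lay the other way. Against Dbh (0.29) and Phox2a (0.31) the arrays overlapped. The exact two-sided permutation test over arrays gave p = 0.333 for the first 3 of these 5 comparisons, the smallest that 2 arrays against 2 can give, and 1 for Dbh and 0.667 for Phox2a. This test cannot pass a threshold of 0.05 with 4 arrays, whatever the size of a difference. Without array 1 of the sample-1 level the value was 0.12 for Slc18a2 and 0.0012 for Phox2a and turned to -0.20 for Dbh, and with a pseudocount of 1 or quantile normalization Slc18a2 also gave p = 0.667 in the exact test. For Ddc and Slc6a2 the value lay between 0.58 and 1.01 over all alternatives, which kept the same probe sets. The same pseudocount compresses the differences of the dim genes more than that of Th.

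**Figure D3:**
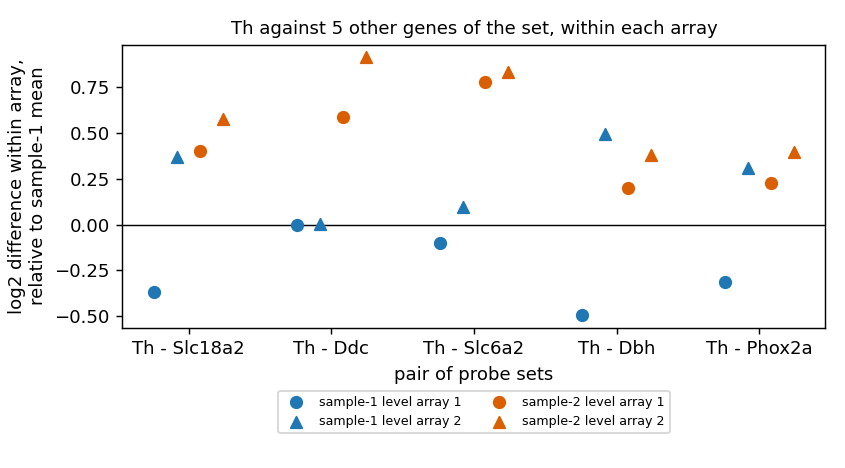
Th minus the named gene within each array on the log2(intensity + 16) scale, relative to the mean of the sample-1 arrays (vertical axis), with 1 point per array. Orange sample-2 points lie above both blue sample-1 points for Slc18a2, Ddc and Slc6a2 and between them for Dbh; for Phox2a 1 of the orange points lies between them.

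Over the 4 arrays, the genes whose centred log2 profile lay closest to that of Th, by root mean square distance, were Trpm2 (0.02), a cation channel, Rbm46 (0.02), Cdh8 (0.02), a cadherin, Lasp1 (0.02) and Slc7a6os (0.02). Trpm2, for example, measured 86.7 and 99.4 against 128 and 141. The genes closest to Dbh were Rbm12b1 (0.02), Tenm1 (0.02), Fut8 (0.03), Psmd11 (0.04) and Pdpr (0.04). With 4 arrays and 27022 probe sets to choose from, close profiles are a description only.

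The remaining genes of the pathway were read from fixed lists, each gene by its brightest tested probe set. Of 13543 genes so tested 0.295% were higher and 0.546% lower past the threshold, with a median difference of -0.01 and 48.8% above 0. Tetrahydrobiopterin is the cofactor that Th requires, and all 7 genes of its synthesis, recycling and regulation (Gch1, Gchfr, Pts, Spr, Qdpr, Pcbd1 and Pcbd2) were tested. None passed, 6 of the 7 lay above 0 and the median was 0.16. Pcbd2 measured 505 and 542 against 424 and 452 (-0.25, limma adjusted p = 0.366) and Pcbd1 525 and 574 against 615 and 661 (0.21, limma adjusted p = 0.457), both dehydratases of cofactor recycling.

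Of 10 tested genes of catecholamine storage, reuptake and breakdown none passed and 6 lay above 0 (median 0.08). Maob, a monoamine oxidase, measured 41.4 and 48.0 against 65.4 and 64.2 (0.41, limma adjusted p = 0.421). Pnmt, the enzyme that turns noradrenaline into adrenaline, measured 18.4 and 35.8 against 26.6 and 9.13, with overlap (limma adjusted p = 0.736). Slc6a3, the dopamine transporter, lay under the filter level at 4.50 and 9.04 against 19.2 and 7.05.

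Only 2 of 6 adrenergic and dopamine receptor genes with a probe set were tested, and neither passed. Adra2c, an alpha-2 receptor, measured 113 and 133 against 92.9 and 108 (-0.25, limma adjusted p = 0.592). Adra1b measured 19.2 and 30.1 against 18.7 and 8.54 (-0.46, limma adjusted p = 0.604). The dopamine receptor genes Drd1, Drd2, Drd3 and Drd4 lay under the filter level, with all probe sets between 1.81 and 22.6.

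Of 11 tested genes among the other sympathetic lineage genes 7 lay above 0, and the median was 0.20. The differences ran from -0.64 to 1.57, so the list did not move in 1 direction. Past the threshold 3 genes were higher and none lower. They were Chrna3 (46.9 and 59.0 against 194 and 183), Chrnb4 (28.1 and 45.5 against 82.0 and 108) and Ret (2576 and 2475 against 3222 and 3163). Chrna3 and Chrnb4 form the main nicotinic receptor of autonomic ganglia, but sensory neurons use all 3 genes as well. Chrna3 differed by 1.57 ± 0.15 (limma adjusted p = 0.000668), Chrnb4 by 1.08 ± 0.21 (0.0448) and Ret by 0.34 ± 0.07 (0.0498). On its other tested probe set Chrna3 also passed (1.47, limma adjusted p = 0.00255). Those of Chrnb4 (0.69, limma adjusted p = 0.238) and Ret (0.24, limma adjusted p = 0.308) were higher without passing. The calls of Chrnb4 and Ret did not hold when certain arrays were left out: the adjusted p was above 0.05 for Chrnb4 without array 1 of the sample-1 level (0.139) and without array 2 of the sample-2 level (0.215), and for Ret without each array in turn (0.0969 to 0.250). Both calls were also lost with a pseudocount of 1 (0.0561 for each) and with median centring (0.0637 and 0.105), and those of all 3 genes without the filter (Chrna3 0.0968) and without the intensity trend (Chrna3 0.305), while all differences stayed above 0. Tfap2b, Chrna5, Vip, Slc18a3, Chat and Slc5a7, the last 3 of cholinergic neurons, lay under the filter level.

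All 9 genes of the list of C-fibre low-threshold mechanoreceptor markers that had a probe set were tested, Th not being on the list. None passed, 8 of the 9 lay above 0, and the median was 0.29, against 0.48 for Th. Cacna1h, a T-type calcium channel, measured 156 and 157 against 248 and 210 (0.51, limma adjusted p = 0.122), and Zfp521, a zinc finger protein, 465 and 444 against 584 and 551 (0.31, limma adjusted p = 0.214). Tafa4, a secreted protein characteristic of these neurons, measured 516 and 506 against 592 and 619 (0.24, limma adjusted p = 0.352). Fxyd6, the only one of the list below 0, measured 495 and 459 against 404 and 431 (-0.19, limma adjusted p = 0.543). The rule for named genes does not cover Tafa4 and Fxyd6, which were chosen after their values were seen. General sensory neuron markers had 6 of 7 above 0 and a median of 0.06, with 0 of 7 past the threshold. That the mechanoreceptor list differs from other neuron genes was not tested.

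**Figure D4:**
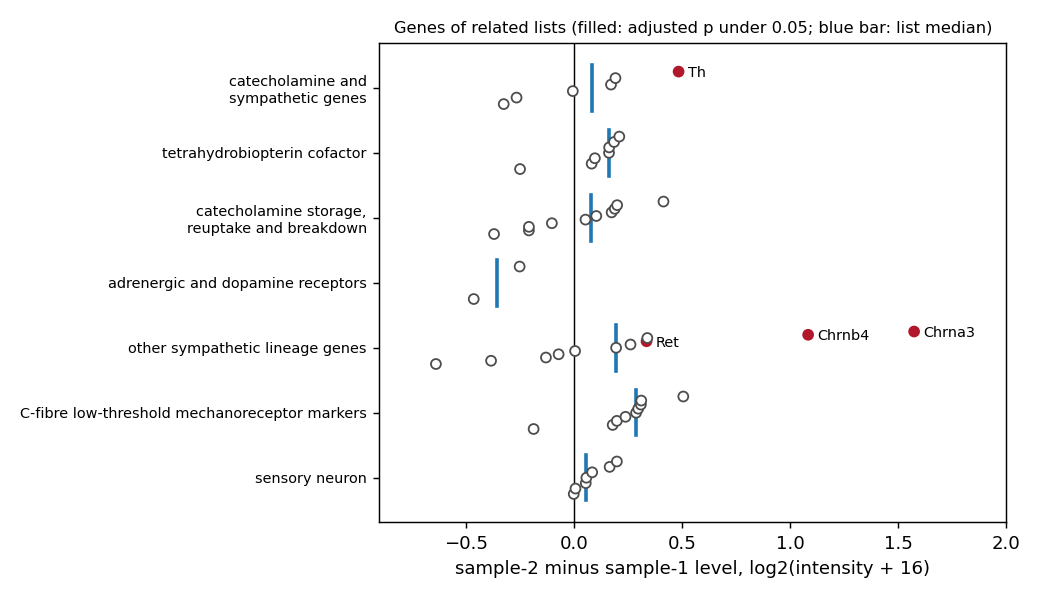
Difference between the levels (sample-2 minus sample-1, log2(intensity + 16), 1 point per gene by its brightest tested probe set) for the catecholamine and sympathetic genes, 5 related lists and sensory neuron markers; filled points passed an adjusted p of 0.05 and blue bars are list medians. Th, Chrna3, Chrnb4 and Ret are the filled points, and the bars lie at 0.08 for the 6 tested genes of the set, 0.29 for the mechanoreceptor markers and 0.06 for the sensory neuron markers.

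Markers of other cells also differed between the arrays, and their part in the values above was not tested. Sensory neuron markers such as Avil and Prph were bright, with a summed intensity of 28990 to 29890 at the sample-1 level and 29330 to 31670 at the sample-2 level. Past the threshold, 5 of 5 neutrophil markers were higher at the sample-2 level (sums of 3092 to 3696 and 6260 to 7900), as was 1 of 2 tested red cell markers (183.5 to 202 and 322 to 446). All 5 fibroblast markers lay below 0, 4 of them past the threshold (7593 to 8513 and 5379 to 5864). The 3 Schwann cell markers lay below 0 without passing by their brightest probe sets (15260 to 16360 and 12330 to 15540), and 1 dimmer probe set of Mbp was lower past the threshold. The 8 skeletal muscle markers lay below 0, 1 of them past the threshold (Myh2, 42.8 and 120 against 2.16 and 11.7, limma adjusted p = 0.0319). They summed to 7175 on sample-1 array 2 and to 1068 to 1615 on the other arrays. Without sample-1 array 2 the difference of Th was 0.58. The 4 markers of adrenal chromaffin cells (Chga, Chgb, Pnmt and Slc18a1), of which many neurons share Chga and Chgb, summed to 1703 to 1932 and 1488 to 1652, with 1 of 4 above 0, none past the threshold and a median of -0.21.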

How the data were processed

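The authors deposited 1 linear intensity for each probe set on 4 mouse dorsal root ganglion arrays. These deposited intensities had been scaled, since the mean without the top and bottom 2% was 150 on each array; the software used is not stated. No 2 arrays held identical values. Values were taken as log2(intensity + 16), 64 control probe sets and those under the 40th percentile of the mean were left out, and 27022 were fitted with limma 3.58.1 (R 4.3.3; lmFit, eBayes with an intensity trend, 2 residual and 9.71 prior degrees of freedom, no covariate). P-values were Benjamini-Hochberg adjusted over all of these, with 0.05 as the threshold. The fit was tested on simulated data. The number of arrays limits the precision.

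Symbols came from the platform annotation: 34945 probe sets had 1, 932 several and 9160 none, and only those with 1 were used. Of the listed genes, those without such a probe set are not used here. The genes of the set and all lists were chosen with earlier results of these data known. Named are all 9 genes, any gene of the related lists past the threshold or else the 2 with the largest difference, and the 5 profiles nearest to Th and Dbh. Alternatives were pseudocounts of 1 and 64, no filter, filtering at the 60th percentile, quantile normalization, median centring, the array number as a block, no trend, a minimum of 1.5-fold and leaving out each array.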

Additional observations from a re-analysis of the deposited data

How the results depend on the processing

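The number of probe sets past the threshold, 168, was 4 without the filter, 104 with median centring, 1 without the intensity trend and 10 with a minimum of 1.5-fold, and 102 to 241 with each array left out. With the array number as a replicate block 793 passed, among them Th (adjusted p = 0.000856) and no other probe set of the 9 genes. The labels do not say what the number marks, and same-numbered arrays did not deviate together (r = 0.03 over tested probe sets). Of the 9 genes' probe sets, 1 (Th) passed, and 0 with a pseudocount of 1, no filter, quantile normalization, median centring, no trend or a minimum of 1.5-fold, and 0 to 1 with each array left out. The difference of Th was then 0.49 (adjusted p = 0.0561), 0.48 (0.328), 0.48 (0.0529), 0.47 (0.0675), 0.48 (0.471) and 0.48 (1), and 0.39 to 0.58 with each array left out. It kept its direction throughout these 13 alternatives and passed in 4. With each array left out, differences ran from -0.38 to -0.15 for Ddc, -0.21 to 0.59 for Dbh, -0.34 to 0.078 for Slc6a2 (1421641_at), -0.28 to 0.27 for Slc18a2 and -0.047 to 0.39 for Phox2a; that of Slc18a2 was 0.0092 with a pseudocount of 1. Th against Dbh ran from -0.20 to 0.78, against Slc18a2 from 0.12 to 0.86 and against Phox2a from 0.0012 to 0.62. A filter at the 60th percentile left Th alone of the set. The cause of these changes was not tested.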
